A study of Homo sapiens with 18 samples.

Results

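The ZBTB genes encode transcription factors that were followed here after growth factor treatment of BxPC-3, an established cell line from a human pancreatic adenocarcinoma. They were chosen by name and by a measured low-count filter: protein-coding genes whose symbol is ZBTB followed by a digit, with enough counts over the 6 groups. Of 58395 gene identifiers, 61 had such a symbol, 42 of these were protein-coding, and 38 passed the filter, out of 16794 genes tested in all. The filter used the counts themselves, so the levels of the 38 genes are a description. The rule itself uses no difference between treatments. One of the 38, ZBTB8OS, takes its name from its place opposite ZBTB8A and encodes archease, a cofactor of the tRNA ligase, which is not a zinc finger protein. It is kept in the counts because the naming rule includes it, and 37 genes remain without it.

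Cells received hepatocyte growth factor (HGF, 80 ng/ml), which activates the receptor tyrosine kinase MET, or macrophage-stimulating protein (MSP, 100 ng/ml), which activates RON, a receptor of the same family. The groups were HGF at 1 h, MSP at 1 h, the vehicle (phosphate-buffered saline) at 1 h, HGF at 4 h, MSP at 4 h and the vehicle at 4 h, with 3 RNA-seq libraries in each and 18 in all. All of them came from a single cell line grown in RPMI medium with fetal bovine serum, penicillin-streptomycin and Plasmocin, and the labels do not say whether serum was withdrawn before treatment. Whether the replicates were separate cultures is not stated in the labels, so p-values reflect the spread among these libraries alone, which may be technical.

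ZBTB proteins pair an amino-terminal BTB (or POZ) domain with carboxy-terminal zinc fingers of the C2H2 kind. The BTB domain lets the proteins form dimers and recruits corepressors such as NCOR1, BCOR and SIN3A with their histone deacetylases, and in some BTB proteins it binds the ubiquitin ligase scaffold CUL3. The zinc fingers read DNA, and most characterised members repress transcription, although several also activate it. Members are known for lineage choice in blood cells, for reading methylated DNA, for binding telomeres and for controlling cell cycle inhibitors together with MYC.

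Total counts ranged from 30556613 to 48477215 per library, and the ZBTB genes took 0.0979% of the counts in HGF libraries at 4 h, against 0.122% in vehicle libraries at 4 h, with 0.119% to 0.131% in the other groups. Levels are given as CPM, counts brought to a common library size with TMM factors, and differences as log2 fold changes with their standard error (SE). TMM factors were 0.841 to 0.86 for HGF at 4 h and 0.98 to 1.07 for all other libraries. Scaled by library totals alone, all genes tested had a median log2 fold change of -0.35 after HGF at 4 h and -0.11 after HGF at 1 h, against -0.06 and 0 with TMM factors, so small rises after HGF depend on the scaling. All 6 ductal epithelial markers were detected, with a summed level of 7140 to 7690 CPM after HGF at 4 h and 5540 to 5760 CPM in vehicle at 4 h. Of the marker lists of other cell types, 6 fibroblast genes summed to 14.4 to 18.6 CPM and 4 leukocyte genes to 1.19 to 1.82 CPM over all libraries. The 3 endothelial genes summed to 2.84 to 3.35 CPM after HGF at 4 h and to 7.26 to 7.85 CPM in vehicle at 4 h, and no marker was at 0 in every library. The part of these shifts in the ZBTB results was not tested. The mitochondrial share of counts was 6.17% ± 0.053 (SD, n = 3) after HGF at 4 h and 8.82% ± 0.142 in vehicle at 4 h, and its part was not tested either.

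The sequences just upstream of 6 ZBTB genes are shown as examples of the different responses described here, chosen after their values were seen from genes with a window clear of annotated exons. They are RefSeq sequences of GRCh38.p14, from 250 bases before the RefSeq start down to that start or to the first base that GENCODE 29 places in an exon. They run 5′ to 3′ on the gene's strand in lower case, with matches to the motifs searched in capitals. ZBTB7B (chr1:155002399-155002629, plus strand) rose most at 1 h, ZBTB14 (chr18:5297054-5297303, minus strand) fell most at 1 h, ZBTB2 (chr6:151391560-151391809, minus strand) rose most at 4 h, and ZBTB3 (chr11:62754189-62754410, minus strand) fell at both times. ZBTB24 (chr6:109483238-109483469, minus strand) fell at 1 h and rose at 4 h, and ZBTB22 (chr6:33317943-33318192, minus strand) was called lower at 4 h but not at 1 h.
ZBTB7B: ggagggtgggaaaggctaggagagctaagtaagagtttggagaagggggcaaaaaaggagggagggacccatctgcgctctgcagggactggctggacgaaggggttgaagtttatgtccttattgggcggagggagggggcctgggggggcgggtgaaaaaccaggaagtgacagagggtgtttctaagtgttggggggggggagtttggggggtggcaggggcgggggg
ZBTB14: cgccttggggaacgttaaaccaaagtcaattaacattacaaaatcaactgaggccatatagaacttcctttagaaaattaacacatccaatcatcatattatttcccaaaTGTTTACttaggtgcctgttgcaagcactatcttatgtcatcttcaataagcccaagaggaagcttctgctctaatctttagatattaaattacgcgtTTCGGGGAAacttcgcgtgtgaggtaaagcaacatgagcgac
ZBTB2: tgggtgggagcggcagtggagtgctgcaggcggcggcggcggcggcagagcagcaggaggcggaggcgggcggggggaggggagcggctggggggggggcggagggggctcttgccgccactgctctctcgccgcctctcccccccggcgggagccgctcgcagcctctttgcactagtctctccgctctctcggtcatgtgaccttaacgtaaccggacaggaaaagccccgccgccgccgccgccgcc
ZBTB3: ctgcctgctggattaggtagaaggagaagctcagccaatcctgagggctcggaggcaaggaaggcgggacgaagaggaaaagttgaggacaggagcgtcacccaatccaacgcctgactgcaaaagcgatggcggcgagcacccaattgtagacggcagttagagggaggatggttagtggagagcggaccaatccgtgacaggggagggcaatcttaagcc
ZBTB24: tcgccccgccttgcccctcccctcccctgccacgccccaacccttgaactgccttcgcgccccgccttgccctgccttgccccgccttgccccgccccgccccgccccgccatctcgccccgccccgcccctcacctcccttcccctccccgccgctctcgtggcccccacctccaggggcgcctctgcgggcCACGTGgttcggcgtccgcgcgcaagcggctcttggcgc
ZBTB22: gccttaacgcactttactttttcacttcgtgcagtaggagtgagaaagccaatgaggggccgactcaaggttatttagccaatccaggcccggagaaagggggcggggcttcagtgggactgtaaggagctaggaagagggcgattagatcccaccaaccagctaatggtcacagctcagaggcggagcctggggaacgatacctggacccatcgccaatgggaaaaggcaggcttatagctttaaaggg
In the ZBTB14 sequence the capitals mark a FOXO motif on the opposite strand and, nearer the start, a STAT motif. In that of ZBTB24 they mark an E-box, the motif bound by MYC with MAX. None of the motifs searched was found in the other 4 printed sequences, which says only that these letters are not in these windows.

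The motifs were searched on both strands over 300 bases, 250 before to 50 after the RefSeq start, and windows were found for 33 of the 38 genes, while ZBTB6, ZBTB10, ZBTB17, ZBTB40 and ZBTB41 had none. For each ZBTB gene only the window nearest its GENCODE 29 start was used. The shares of all windows count every start of a gene, of which ZBTB38 alone has 10, so the sets compared are unlike. The E-box (CACGTG) stood in 7 of 33 ZBTB windows, or 21.2%, against 7.26% of all 35116 windows of the table. The EGR motif (GCGNGGGCG) also stood in 7, against 9.43% of all windows, and the FOXO motif (GTAAACA) in 3, against 3.42%. The cyclic AMP response element (TGACGTCA) was in the windows of ZBTB11 and ZBTB48, against 1.85% of all windows, and the ETS motif (CCGGAAGT) in those of ZBTB11 and ZBTB37, against 4.14%. The window of ZBTB11 lies inside an exon of its longest GENCODE 29 transcript and is therefore not printed. The Kaiso motif (TCCTGCNA) was in the windows of ZBTB7C and ZBTB47, against 4.69% of all windows. The RefSeq start of the ZBTB7C window lies 35125 bases from the GENCODE 29 start of the gene. The STAT motif (TTCNNNGAA) was in the window of ZBTB14 alone among the 33, against 7.66%. No ZBTB window held the AP-1 motif (TGANTCA), the TATA box (TATAAA) or the CArG box of SRF, against 7.71%, 11.5% and 1.29% of all windows. These matches describe letters, not occupied sites.

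The 38 genes differed 95-fold in their level per kilobase of exon in vehicle libraries at 1 h. ZBTB7A, known as LRF or Pokemon, was highest at 28.8 ± 0.226 CPM per kb (SD, n = 3), followed by ZBTB33 at 21.0 ± 1.56, ZBTB4 at 15.9 ± 0.185, ZBTB1 at 15.4 ± 0.408, ZBTB5 at 14.0 ± 0.413 and ZBTB44 at 12.0 ± 0.552. The ranges of 1 SD around ZBTB4 and ZBTB1 overlapped, so their order is not resolved. The lowest were ZBTB20 at 0.306 ± 0.097 and ZBTB32 at 0.303 ± 0.0638 CPM per kb, which do not differ beyond their spread. The exon length used joins all annotated exons, 31872 bases for ZBTB20 and 2770 for ZBTB32. Before division by length they had 9.77 and 0.839 CPM in vehicle at 1 h, so ranks per kb depend on that length. Of ZBTB20's exon bases 47.7% lie within exons of ENSG00000259976 and MIR568 on the same strand, as do 25.2% of those of ZBTB8A within ENSG00000254553, and reads of shared bases may be left uncounted, so the levels per kb of both are uncertain. The median of the 38 genes was 3.33 CPM per kb, against 4.61 CPM per kb over the 13100 protein-coding genes tested. Just inside the filter, ZBTB32 had 14 to 51 counts per library and ZBTB49 had 52 to 115.

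**Figure D1:**
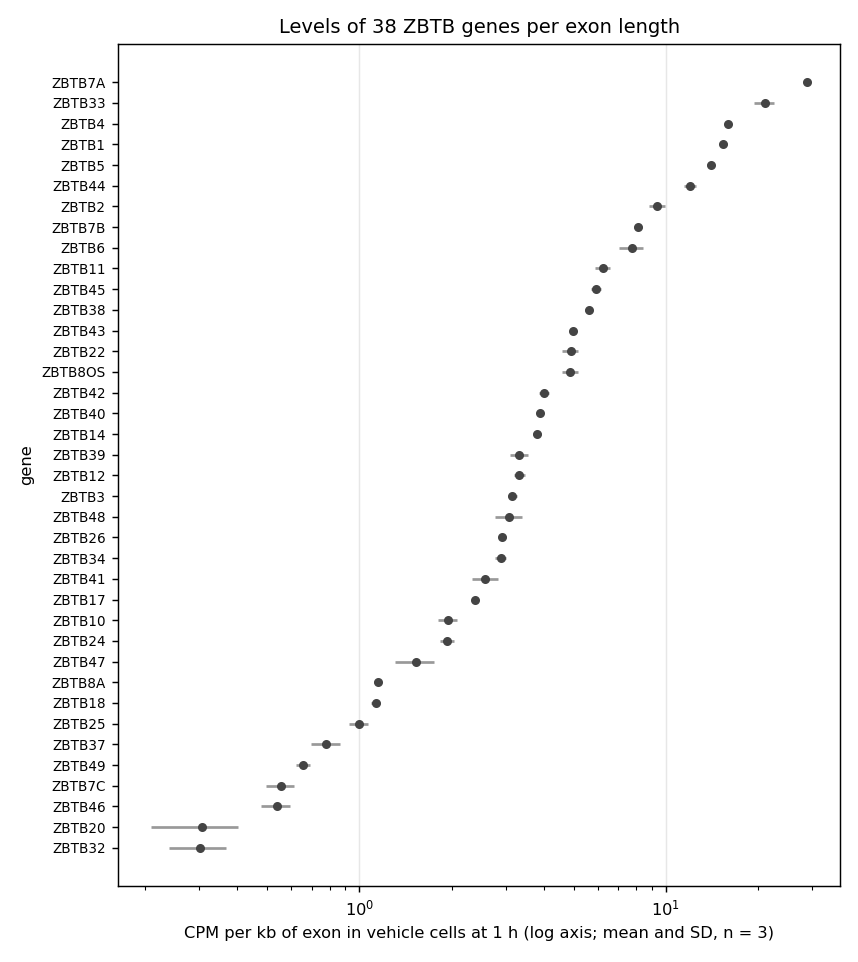
Level of each of the 38 ZBTB genes in the 3 vehicle libraries at 1 h, in CPM per kb of exon on a log axis, as mean and SD (n = 3). ZBTB7A stands at 28.8 CPM per kb at the top and ZBTB32 at 0.303 CPM per kb at the bottom.

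The 4 genes that did not pass the filter were ZBTB8B, ZBTB9, ZBTB16 and ZBTB21. ZBTB8B, ZBTB16 (PLZF, a regulator of innate-like lymphocytes and germ cells) and ZBTB21 had 0 counts in every library, which allows a level of up to 0.0619 to 0.0982 CPM of library totals (3 counts), for counting error only. ZBTB9 had 2 counts in all. Of ZBTB8B's exon bases 11.5% are shared with another gene on the same strand, and of those of ZBTB16 and ZBTB21 0%. ZBTB21 is usually widely expressed, and with the annotation and counting settings not stated, a count of 0 does not show that such a gene was silent.

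After HGF the ZBTB genes moved in both directions, by less than 2-fold with TMM factors in all but ZBTB10 and ZBTB3. At 1 h, 8 of 38 were higher, or 21.1%, against 13.8% of all genes tested, and 13 were lower, or 34.2%, against 7.16% of all genes (quasi-likelihood test of edgeR, Benjamini-Hochberg adjustment over all genes, threshold 0.05). At 4 h, 10 were higher, or 26.3%, against 33.1% of all genes, and 18 were lower, or 47.4%, against 34.8%. The median log2 fold change of the 38 was 0 at 1 h, the same as over all genes, and -0.18 at 4 h, against -0.06 over all genes. No called ZBTB gene changed by 2-fold or more at 1 h, and at 4 h ZBTB10 and ZBTB3 fell by more than that. When library totals replaced TMM factors the split was 4 higher and 13 lower at 1 h, against 9.07% and 21.4% of all genes, and 4 higher and 25 lower at 4 h, against 21.2% and 52% of all genes. With that scaling 6 called genes fell by more than 2-fold at 4 h: ZBTB10 (-2.49), ZBTB3 (-1.40), ZBTB20 (-1.22), ZBTB22 (-1.17), ZBTB7C (-1.15) and ZBTB12 (-1.09). In bulk RNA a lower level can come from fewer cells of one kind or from less RNA per cell, and these cannot be told apart.

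After MSP the same genes stayed close to their vehicle levels. At 1 h, 1 of 38 was higher and none was lower, against 0.78% and 0.0536% of all genes. The MSP libraries at 1 h also differed more from each other than those of any other group. At 4 h none was called in either direction, against 0.774% higher and 0.292% lower over all genes. At 4 h 3 had an unadjusted p under 0.05, and DESeq2 called 0 of them. Median log2 fold changes of the 38 were 0.01 at 1 h and -0.01 at 4 h, against 0.01 and 0 over all genes.

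**Figure D2:**
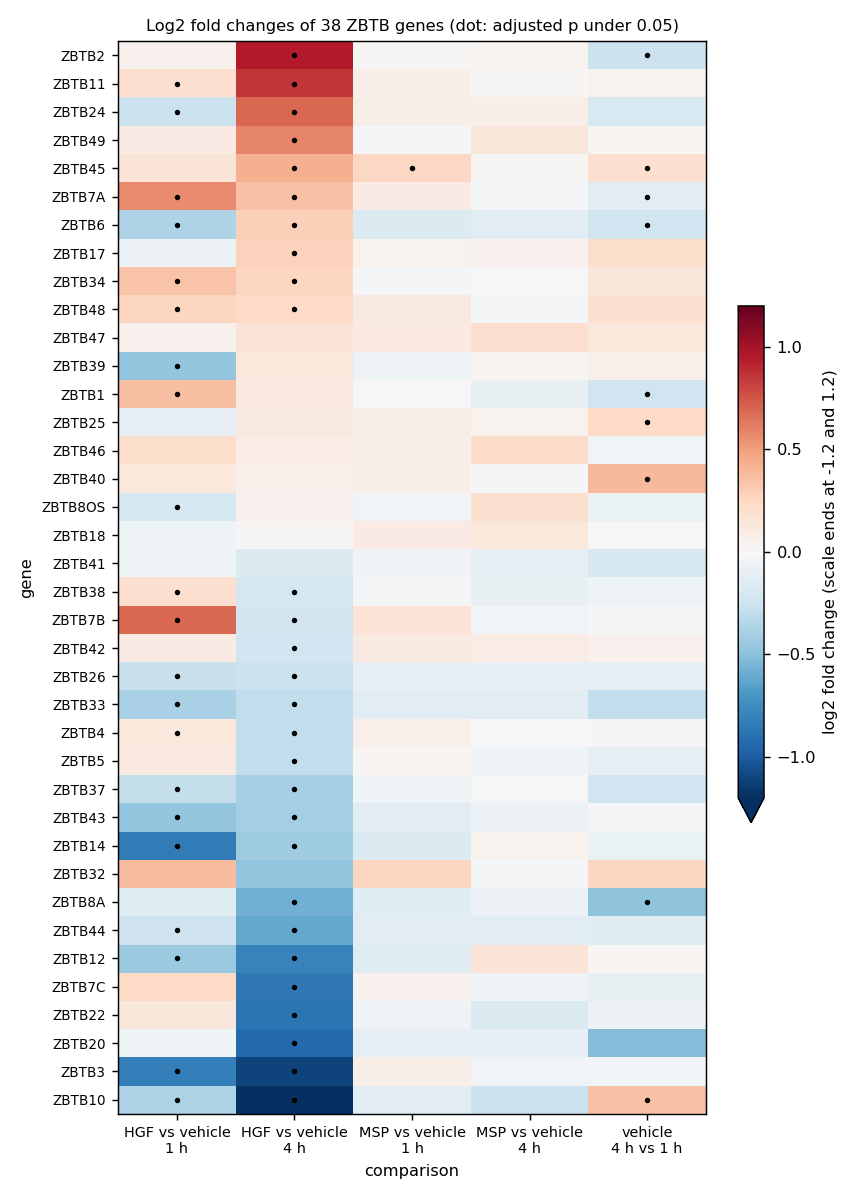
Log2 fold change (colour, clipped at -1.2 and 1.2) of the 38 ZBTB genes (rows, ordered by HGF at 4 h) in 5 comparisons (columns), with a dot where the adjusted p is under 0.05. The HGF column at 4 h holds 28 dots, the HGF column at 1 h 21, and the MSP columns 1 and 0.

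The ZBTB7 genes, 3 relatives named after ZBTB7A, did not move alike. ZBTB7A, a repressor of glycolytic genes and of fetal globin, had 260, 238 and 235 CPM after HGF at 1 h, against 165, 163 and 166 CPM in vehicle. Every HGF library lay above every vehicle library, and ZBTB7A rose by 0.57 ± 0.04 (log2, SE), with an adjusted p = 2.98e-12 in edgeR. At 4 h it had 187, 200 and 187 CPM after HGF, against 149, 156 and 145 CPM in vehicle, a log2 fold change of 0.35 ± 0.04 (adjusted p = 2.28e-08) that shrank to 0.06 and was not called with library totals (adjusted p = 0.221).

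ZBTB7B, known as ThPOK for directing T cells to the CD4 lineage, had 57.3, 57.2 and 53.9 CPM after HGF at 1 h, against 35.6, 35.5 and 33.7 CPM in vehicle. This was the largest rise among the 38 genes at 1 h, 0.69 ± 0.06 on the log2 scale (adjusted p = 1.2e-10, edgeR), with no overlap between the groups. At 4 h the order was turned, with 30.9, 30.5 and 27.4 CPM after HGF, against 32.1, 37.5 and 33.3 CPM in vehicle, and ZBTB7B fell by 0.22 ± 0.06 (adjusted p = 0.00408). The call at 4 h was lost without HGF replicate 3 (log2 fold change -0.15, adjusted p = 0.0587) and without vehicle replicate 2 (-0.15, adjusted p = 0.0573).

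ZBTB7C, the third relative, was much less abundant. It had 4.84, 4.93 and 5.19 CPM after HGF at 1 h, against 4.58, 4.41 and 3.74 CPM in vehicle, and this was not called. After 4 h the values were 2.32, 2.27 and 2.02 CPM after HGF, against 3.40, 5.17 and 3.38 CPM in vehicle. The 4 h libraries did not overlap and ZBTB7C fell by 0.86 ± 0.16 (adjusted p = 2e-05, edgeR).

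**Figure D3:**
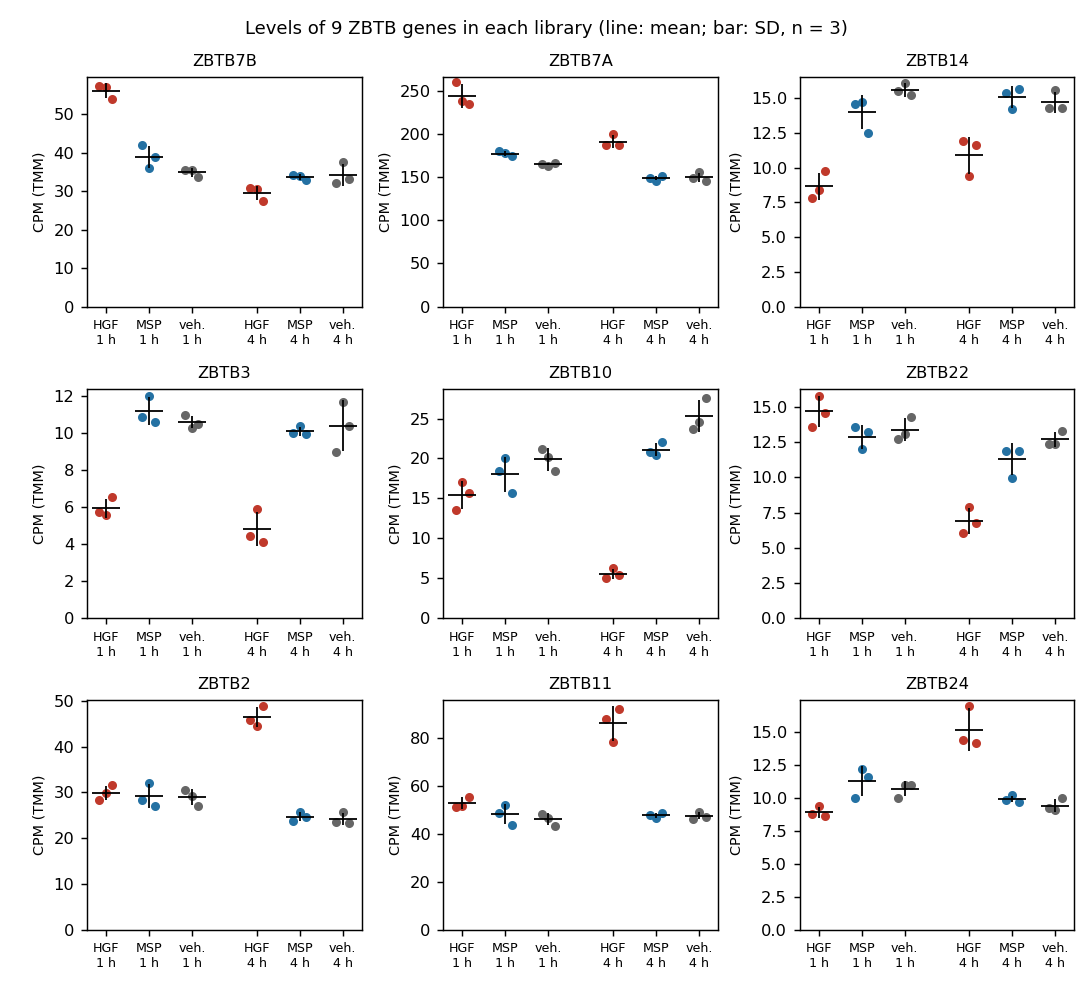
CPM of 9 ZBTB genes in each of the 18 libraries (points), with mean (line) and SD (bar, n = 3), for HGF, MSP and vehicle at 1 h and then at 4 h. ZBTB7B after HGF lies between 53.9 and 57.3 CPM at 1 h and between 27.4 and 30.9 CPM at 4 h, while ZBTB10 after HGF at 4 h lies between 5.02 and 6.22 CPM, against 23.7 to 27.6 CPM in vehicle.

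Of the genes for proteins that bind methylated DNA, ZBTB33, ZBTB4 and ZBTB38, all 3 were lower after HGF at 4 h and differed in direction at 1 h. ZBTB33 encodes Kaiso, which binds methylated CpG pairs as well as the unmethylated motif searched above. It had 76.6, 87.1 and 90.6 CPM after HGF at 1 h, against 119, 112 and 103 CPM in vehicle, and 76.9, 68.5 and 75.7 CPM after HGF at 4 h, against 85.4, 88.7 and 97.2 CPM in vehicle. The groups did not overlap at either time, and ZBTB33 fell by 0.39 ± 0.11 at 1 h (adjusted p = 0.0166, edgeR) and by 0.30 ± 0.11 at 4 h (adjusted p = 0.0285). Its 1 h call was lost without HGF replicate 1 (log2 fold change -0.32, adjusted p = 0.0739) or vehicle replicate 1 (-0.34, adjusted p = 0.0675). Its 4 h call was lost without HGF replicate 2 (-0.24, adjusted p = 0.116), HGF replicate 3 (-0.31, adjusted p = 0.0559) or vehicle replicate 3 (-0.24, adjusted p = 0.109).

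ZBTB4 had 108, 105 and 107 CPM after HGF at 1 h, against 98.6, 97.4 and 96.3 CPM in vehicle, and ZBTB38 had 89.1, 92.2 and 93.5 CPM after HGF, against 81.7, 80.2 and 77.5 CPM in vehicle. Both were slightly higher with no overlap, by 0.13 ± 0.04 for ZBTB4 (adjusted p = 0.0268, edgeR) and 0.20 ± 0.05 for ZBTB38 (adjusted p = 0.00129), and with library totals neither was called (0.03 and 0.10). The ZBTB4 call was also lost without HGF replicate 1 or 3 or vehicle replicate 2 or 3 at 1 h, with log2 fold changes of 0.12 to 0.13. At 4 h ZBTB4 had 79.9, 77.6 and 78.1 CPM after HGF, against 94.7, 97.6 and 98.2 CPM in vehicle, and ZBTB38 had 63.3, 70.0 and 67.8 CPM after HGF, against 75.3, 77.8 and 78.8 CPM in vehicle. ZBTB4 fell by 0.30 ± 0.04 (adjusted p = 3e-07) and ZBTB38 fell by 0.21 ± 0.05 (adjusted p = 0.000311), again with no overlap.

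Several members are known for acting on MYC, on p53 or on CDKN1A, the gene of the cell cycle inhibitor p21. ZBTB17, or MIZ1, binds MYC and is held in a repressing complex by it at CDKN1A and CDKN2B. It had 9.71, 10.9 and 8.53 CPM after HGF at 1 h, against 10.0, 10.1 and 10.1 CPM in vehicle, with a log2 fold change of -0.07 ± 0.09 that was not called. At 4 h it had 13.2, 15.6 and 13.8 CPM after HGF, against 10.8, 12.3 and 11.9 CPM in vehicle, higher by 0.28 ± 0.09 (adjusted p = 0.00535, edgeR) with TMM factors but -0.01 and not called with library totals.

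ZBTB14, or ZF5, was first described as a repressor of MYC. It had 7.83, 8.4 and 9.73 CPM after HGF at 1 h, against 15.5, 16.1 and 15.2 CPM in vehicle, and 11.9, 9.42 and 11.6 CPM after HGF at 4 h, against 14.3, 15.6 and 14.3 CPM in vehicle. The HGF libraries were the lower ones at both times without overlap. ZBTB14 fell by 0.84 ± 0.09 at 1 h (adjusted p = 8.05e-09, edgeR), the largest fall of the 38 genes at that time, and by 0.43 ± 0.09 at 4 h (adjusted p = 0.000159).

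ZBTB2, a repressor described at CDKN1A and within the p53 pathway, was near its vehicle level at 1 h, with 28.4, 29.8 and 31.5 CPM after HGF, against 30.5, 29.2 and 27.0 CPM in vehicle. By 4 h it stood at 45.9, 44.5 and 48.8 CPM after HGF, against 23.6, 25.6 and 23.2 CPM in vehicle. This was the largest rise of the 38 genes at 4 h, 0.95 ± 0.07 on the log2 scale or 1.93-fold (adjusted p = 7.93e-14, edgeR), with no overlap.

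ZBTB5, another repressor described at CDKN1A, averaged 48 ± 1.03 CPM after HGF at 4 h and 59.3 ± 3.81 CPM in vehicle (SD, n = 3), and fell by 0.30 ± 0.05 (adjusted p = 3.61e-06, edgeR). ZBTB49, described as an activator of CDKN1A, was low, with 3.20, 2.79 and 2.77 CPM after HGF at 4 h, against 1.61, 2.11 and 2.07 CPM in vehicle. The libraries did not overlap and its log2 fold change was 0.59 ± 0.17 (adjusted p = 0.00229), which became 0.30 and was not called with library totals (adjusted p = 0.102).

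A further set acts on chromatin, telomeres or genome stability. ZBTB24, mutated in a form of the immunodeficiency, centromere instability and facial anomalies syndrome and an activator of CDCA7, had 8.76, 9.42 and 8.62 CPM after HGF at 1 h, against 10.0, 11 and 11 CPM in vehicle. After 4 h there were 14.4, 17 and 14.2 CPM after HGF, against 9.21, 9.10 and 9.99 CPM in vehicle. The HGF libraries were all below vehicle at 1 h (-0.26 ± 0.09, adjusted p = 0.0341, edgeR) and all above it at 4 h (0.69 ± 0.09, adjusted p = 6e-08). The 1 h call was lost without HGF replicate 1 or 3 or vehicle replicate 2 or 3, with log2 fold changes of -0.25 to -0.23 and adjusted p of 0.0946 to 0.128. Exons of MICAL1 on the same strand share 5.53% of ZBTB24's exon bases, and MICAL1 was also higher after HGF at 4 h (0.66, adjusted p = 0.000181), so this value is uncertain to that extent.

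ZBTB10, a repressor of SP1, SP3 and SP4 that also binds variant telomeric repeats, showed the largest change of the 38 genes in any comparison. At 1 h it had 13.5, 17 and 15.7 CPM after HGF, against 21.2, 20.2 and 18.4 CPM in vehicle, and at 4 h 5.02, 6.22 and 5.35 CPM after HGF, against 23.7, 24.6 and 27.6 CPM in vehicle. It was lower without overlap at both times, by -0.37 ± 0.09 at 1 h (adjusted p = 0.00212, edgeR) and by -2.19 ± 0.10 at 4 h, a 4.58-fold fall (adjusted p = 1e-17). An unnamed transcript on the opposite strand, ENSG00000251867, shares 5.81% of its exon bases and had only 3 to 62 counts per library, and it too was lower at 4 h (-2.84, adjusted p = 1.94e-08). With the strand setting not given in the sources used here, reads of the pair cannot be told apart over that stretch.

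ZBTB11, mutated in a recessive intellectual disability and linked to mitochondrial respiration, had 51.2, 51.6 and 55.6 CPM after HGF at 1 h, against 48.4, 46.8 and 43.4 CPM in vehicle. At 4 h it had 88.0, 78.2 and 92.1 CPM after HGF, against 46.2, 49.1 and 47.2 CPM in vehicle. The groups did not overlap at either time, with log2 fold changes of 0.20 ± 0.06 at 1 h (adjusted p = 0.0196, edgeR) and 0.86 ± 0.06 at 4 h (adjusted p = 1.19e-13). The 1 h call was lost with library totals (0.09, adjusted p = 0.254), without HGF replicate 3 (0.15, adjusted p = 0.138) and without vehicle replicate 3 (0.15, adjusted p = 0.143). Its antisense transcript ZBTB11-AS1, with 102 to 214 counts per library, overlaps 12% of its exon bases and was itself higher at 4 h (0.53, adjusted p = 0.00327).

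ZBTB48, or TZAP, binds telomere repeats directly. It had 17.9, 16.4 and 15.8 CPM after HGF at 1 h, against 12.4, 15.3 and 14.1 CPM in vehicle, and 19.1, 20.2 and 17.2 CPM after HGF at 4 h, against 16.4, 17.4 and 13.9 CPM in vehicle. The 4 h groups overlapped, and the log2 fold changes of 0.26 ± 0.09 at 1 h (adjusted p = 0.0448, edgeR) and 0.24 ± 0.09 at 4 h (adjusted p = 0.0227) became 0.15 and -0.05 with library totals and were not called. The 1 h call was lost without HGF replicate 1 or 2 or vehicle replicate 1 or 3 (0.18 to 0.26), and the 4 h call without HGF replicate 1 or 2 or vehicle replicate 3 (0.16 to 0.24). ZBTB43, known from mouse germ cells for resolving Z-DNA, had 23.0, 27.5 and 25.2 CPM after HGF at 1 h, against 35.1, 35.0 and 34.9 CPM in vehicle. It fell without overlap by 0.47 ± 0.06 at 1 h (adjusted p = 1.62e-07) and by 0.41 ± 0.06 at 4 h (adjusted p = 6.34e-07), where it averaged 26.0 ± 0.915 CPM after HGF and 34.6 ± 1.29 CPM in vehicle (SD, n = 3).

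Among genes whose products are less well characterised, ZBTB3 had 5.76, 5.56 and 6.54 CPM after HGF at 1 h, against 11, 10.3 and 10.5 CPM in vehicle. After 4 h the values were 4.45, 5.88 and 4.14 CPM after HGF, against 8.96, 11.7 and 10.4 CPM in vehicle. It fell at both times without overlap, by 0.82 ± 0.11 at 1 h (adjusted p = 2.86e-07, edgeR) and by 1.11 ± 0.12 at 4 h (adjusted p = 6.99e-10). ZBTB12 behaved in the same direction, with 4.97, 4.57 and 4.28 CPM after HGF at 1 h, against 6.50, 5.97 and 6.28 CPM in vehicle, and 3.77, 3.54 and 3.59 CPM after HGF at 4 h, against 6.09, 5.95 and 6.92 CPM in vehicle. Its groups did not overlap, and ZBTB12 fell by 0.45 ± 0.10 at 1 h (adjusted p = 0.00122) and by 0.80 ± 0.11 at 4 h (adjusted p = 1.82e-07).

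ZBTB22 and ZBTB20 were called lower at 4 h but not at 1 h. ZBTB22 had 6.05, 7.89 and 6.75 CPM after HGF at 4 h, against 12.4, 12.4 and 13.3 CPM in vehicle, and fell without overlap by 0.88 ± 0.10 (adjusted p = 3.39e-09, edgeR). ZBTB20, a repressor of alpha-fetoprotein in the liver, had 3.01, 4.24 and 3.56 CPM after HGF at 4 h, against 6.33, 6.09 and 8.09 CPM in vehicle. It also fell without overlap, by 0.93 ± 0.27 (adjusted p = 0.00764). At 1 h its vehicle libraries already spread over 6.92, 9.34 and 13.1 CPM, a range that held all 3 HGF libraries (8.66, 9.36 and 10.2 CPM).

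ZBTB1, ZBTB34, ZBTB39 and ZBTB6 were also among the largest changes at 1 h. ZBTB1, needed for lymphoid development, had 102, 107 and 105 CPM after HGF, against 82.5, 82.5 and 78.8 CPM in vehicle, and rose without overlap by 0.36 ± 0.05 (adjusted p = 3.74e-06, edgeR), or by 0.26 with library totals. ZBTB34 had 24.2, 25.4 and 23.4 CPM after HGF at 1 h, against 19.1, 18.4 and 19.9 CPM in vehicle, and rose without overlap by 0.34 ± 0.07 (adjusted p = 0.000372), or by 0.24 with library totals. ZBTB39 had 13.8, 15 and 15.6 CPM after HGF at 1 h, against 20, 22.2 and 19.5 CPM in vehicle, and fell without overlap by 0.47 ± 0.08 (adjusted p = 4.88e-05). ZBTB6 fell at 1 h with 22.1, 26.2 and 25.4 CPM after HGF, against 34.9, 29.4 and 31.1 CPM in vehicle (-0.37 ± 0.08, adjusted p = 0.00146).

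At 4 h these genes stood elsewhere. ZBTB6 had 32.3, 30.1 and 36.6 CPM after HGF at 4 h, against 27.5, 26.1 and 27.3 CPM in vehicle, a log2 fold change of 0.29 ± 0.08 (adjusted p = 0.00348, edgeR) that was 0 with library totals. ZBTB34 was higher by 0.26 ± 0.07 (adjusted p = 0.00192) with TMM factors, and at -0.03 with library totals. ZBTB1 (0.12) and ZBTB39 (0.13) were not called at 4 h. ZBTB45, a regulator of glial differentiation in mice, had 30.6, 31.6 and 31.9 CPM after HGF at 4 h, against 23.9, 22.7 and 23.0 CPM in vehicle, and rose without overlap by 0.43 ± 0.06 (adjusted p = 7.03e-08), or by 0.14 with library totals (adjusted p = 0.0233).

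The remaining called genes are given without the values of each library. ZBTB44 fell by 0.25 at 1 h and by 0.61 at 4 h, ZBTB37 by 0.29 and 0.40, and ZBTB26 by 0.27 and 0.26. The 1 h calls of ZBTB37 and ZBTB26 were each lost without any 1 of 4 libraries: vehicle replicate 2 or 3 and HGF replicate 1 or 2, with log2 fold changes of -0.28 to -0.24 for ZBTB37 and -0.26 to -0.21 for ZBTB26. The 4 h call of ZBTB26 was lost without HGF replicate 3 (-0.17, adjusted p = 0.152). ZBTB8A (-0.58) and ZBTB42 (-0.23) were called at 4 h but not at 1 h. ZBTB8OS was lower at 1 h alone (-0.21, adjusted p = 0.0483, edgeR), a call lost without HGF replicate 2 or 3 or vehicle replicate 2 or 3 (-0.24 to -0.16). ZBTB18, ZBTB25, ZBTB32, ZBTB40, ZBTB41, ZBTB46 and ZBTB47 were called at neither time with TMM factors.

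Taken by gene, 31 of the 38 were called after HGF at 1 h, at 4 h or at both, or 81.6%, against 71% of all genes. The 1 h and 4 h comparisons have separate vehicle libraries. ZBTB7A, ZBTB11, ZBTB34 and ZBTB48 were called higher at both times, 10.5% of the 38 against 10.6% of all genes. Lower at both times were 9 genes, or 23.7%, against 4.73% of all genes: ZBTB3, ZBTB10, ZBTB12, ZBTB14, ZBTB26, ZBTB33, ZBTB37, ZBTB43 and ZBTB44. Of the 18 called at both times, 5 had opposite calls, or 27.8%, against 412 of 2989 genes, or 13.8%, over the whole table, given as a description. ZBTB4, ZBTB7B and ZBTB38 were higher at 1 h and lower at 4 h, and ZBTB6 and ZBTB24 were lower at 1 h and higher at 4 h. With library totals the 1 h calls of ZBTB4 and ZBTB38 and the 4 h call of ZBTB6 were lost, and those of ZBTB7B and ZBTB24 were kept at both times.

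**Figure D4:**
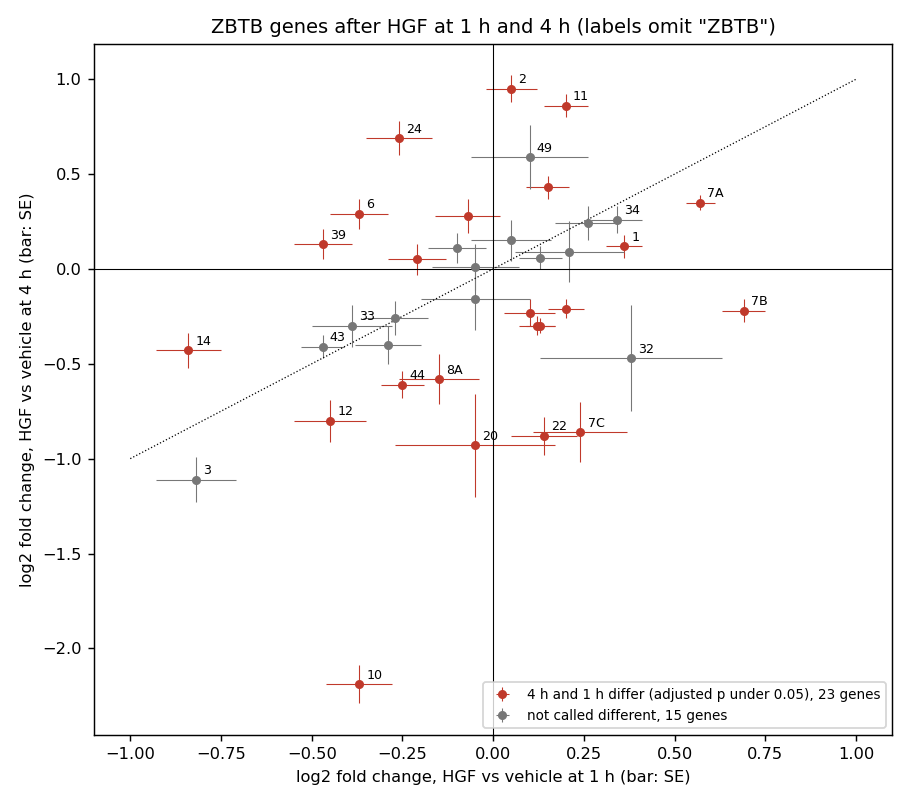
Log2 fold change of each of the 38 ZBTB genes after HGF at 1 h (x axis) and at 4 h (y axis), with SE bars and a dotted line of equal change. The 23 red genes differed between the times at an adjusted p under 0.05 (edgeR), or 60.5%, against 53.2% of all genes. ZBTB10 at -0.37 and -2.19 lay farthest from the line, and ZBTB7B stood at 0.69 and -0.22.

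The difference between the HGF effects at 4 h and 1 h was tested itself, as an interaction. It was positive in 9 genes, against 26.8% of all genes, and negative in 14, against 26.4%. The largest positive differences were those of ZBTB24 (0.95 ± 0.13, adjusted p = 1.64e-07, edgeR), ZBTB2 (0.89 ± 0.09, adjusted p = 1.34e-09), ZBTB6 (0.66 ± 0.12, adjusted p = 3.31e-05) and ZBTB11 (0.66 ± 0.09, adjusted p = 1.1e-07). The largest negative ones were those of ZBTB10 (-1.82 ± 0.14, adjusted p = 1.92e-12), ZBTB7C (-1.09 ± 0.21, adjusted p = 4.09e-05), ZBTB22 (-1.02 ± 0.13, adjusted p = 1.05e-07) and ZBTB7B (-0.90 ± 0.09, adjusted p = 4.02e-10). ZBTB33 did not pass (0.10 ± 0.15). With library totals the split was 5 positive and 18 negative, against 18.6% and 37.9% of all genes. The same test for MSP called none in either direction, against 0.0476% of all genes positive and 0.274% negative, while 4 had an unadjusted p under 0.05.

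The single call after MSP was ZBTB45 at 1 h, with 24.5, 23.5 and 24.3 CPM after MSP, against 21.2, 19.9 and 19.8 CPM in vehicle. The MSP libraries were all above vehicle and the log2 fold change was 0.25 ± 0.06 (adjusted p = 0.0189, edgeR). The call was lost when only these 2 groups entered the fit (adjusted p = 0.199), and without MSP replicate 1 or 3 or vehicle replicate 2 or 3, with log2 fold changes of 0.23 to 0.24 and adjusted p of 0.0703 to 0.144. ZBTB7A had 180, 178 and 174 CPM after MSP at 1 h, against 165, 163 and 166 CPM in vehicle, which also did not overlap but did not pass the test (0.10 ± 0.04, adjusted p = 0.52). ZBTB7B had 42.0, 36.1 and 38.8 CPM after MSP at 1 h, against 35.6, 35.5 and 33.7 CPM in vehicle, a log2 fold change of 0.16 ± 0.06 that was not called (adjusted p = 0.446). Of the other genes named in every comparison, ZBTB17 (0.04), ZBTB33 (-0.14), ZBTB4 (0.06) and ZBTB38 (-0.02) were not called at 1 h.

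At 4 h after MSP, ZBTB10 came nearest to a call. It had 20.8, 20.4 and 22.0 CPM after MSP, against 23.7, 24.6 and 27.6 CPM in vehicle, with every MSP library below every vehicle library and a log2 fold change of -0.26 ± 0.09 (adjusted p = 0.143, edgeR). It passed when only the 2 groups entered the fit (adjusted p = 0.024) and when no low-count filter was used (adjusted p = 0.0461). ZBTB17 (0.05), ZBTB7A (-0.02), ZBTB33 (-0.13), ZBTB4 (0) and ZBTB38 (-0.09) were not called. A p that misses the threshold does not show that MSP left a gene unchanged, and the SE of a log2 fold change over the 38 genes had a median of 0.09 and reached 0.25 after MSP at 4 h.

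Set directly against MSP at the same time, HGF gave 5 higher and 6 lower genes at 1 h, against 11.4% and 6.36% of all genes, and 11 higher and 16 lower at 4 h, against 32.7% and 33.8%. These comparisons do not use the vehicle libraries. Without MSP replicate 3 at 1 h, 15 ZBTB genes were called at 1 h in place of 11. No share over all genes is given for that fit, so this count describes the ZBTB genes alone. At 1 h ZBTB7B (0.53 ± 0.06), ZBTB7A (0.46 ± 0.04), ZBTB1 (0.36 ± 0.05) and ZBTB34 (0.35 ± 0.07) were highest relative to MSP, and ZBTB3 (-0.90 ± 0.11), ZBTB14 (-0.68 ± 0.09), ZBTB39 (-0.41 ± 0.08) and ZBTB43 (-0.35 ± 0.06) were lowest. At 4 h ZBTB2 (0.91 ± 0.07), ZBTB11 (0.85 ± 0.06), ZBTB24 (0.62 ± 0.09) and ZBTB49 (0.45 ± 0.16) were the highest, and ZBTB10 (-1.93 ± 0.10), ZBTB3 (-1.08 ± 0.11), ZBTB12 (-0.95 ± 0.11) and ZBTB20 (-0.82 ± 0.27) the lowest. The ZBTB49 call was lost with library totals and without HGF replicate 1 (0.39, adjusted p = 0.0612, edgeR), and that of ZBTB20 without HGF replicate 1 (-0.71, adjusted p = 0.0606) or MSP replicate 3 (-0.71, adjusted p = 0.0523). ZBTB7A (0.36), ZBTB4 (-0.30), ZBTB17 (0.23) and ZBTB38 (-0.11) were also called at 4 h, and the HGF and MSP libraries of ZBTB38 overlapped. ZBTB33 (-0.17) was not called. The ZBTB7A call was lost with library totals (0.07, adjusted p = 0.167, edgeR), and that of ZBTB4 under none of 13 alternatives. The ZBTB38 call was lost under 7 of 13 alternatives, among them leaving out HGF replicate 1 (-0.06, adjusted p = 0.282), HGF replicate 3 (-0.11, adjusted p = 0.0791), MSP replicate 2 (-0.08, adjusted p = 0.196) or MSP replicate 3 (-0.11, adjusted p = 0.0825). The ZBTB17 call was lost without HGF replicate 2 (0.16, adjusted p = 0.121) or MSP replicate 2 (0.21, adjusted p = 0.0532) and with library totals (-0.07, adjusted p = 0.453). With library totals the splits were 5 higher and 15 lower at 1 h, against 7.72% and 18.5% of all genes, and 4 higher and 26 lower at 4 h, against 19.8% and 53.4%.

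Vehicle libraries also differed between 4 h and 1 h, with 4 genes higher and 5 lower, against 10.9% and 9.99% of all genes. ZBTB40 had 49.7, 45.1 and 45.5 CPM in vehicle at 4 h, against 34.9, 35.7 and 36.6 CPM in vehicle at 1 h, and rose by 0.39 ± 0.06 (adjusted p = 6.31e-05, edgeR). ZBTB10 was higher by 0.35 ± 0.09 (adjusted p = 0.0043), and ZBTB25 (0.24) and ZBTB45 (0.20) were also higher. ZBTB8A had 5.62, 5.56 and 6.27 CPM in vehicle at 4 h, against 8.02, 7.97 and 8.36 CPM in vehicle at 1 h, and fell by 0.48 ± 0.11 (adjusted p = 0.0025). ZBTB2 (-0.26), ZBTB1 (-0.24), ZBTB6 (-0.24) and ZBTB7A (-0.13) were lower too. Calls of ZBTB25, ZBTB45, ZBTB6 and ZBTB7A were each lost when 1 of several vehicle libraries was left out, with log2 fold changes of 0.19 to 0.24 for ZBTB25, 0.17 to 0.18 for ZBTB45, -0.25 to -0.16 for ZBTB6 and -0.14 to -0.11 for ZBTB7A. The split was 3 higher and 7 lower with library totals, against 8.77% and 12.2% of all genes, and 2 higher and 7 lower with no low-count filter, against 1512 higher and 1942 lower over all genes.

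**Figure D5:**
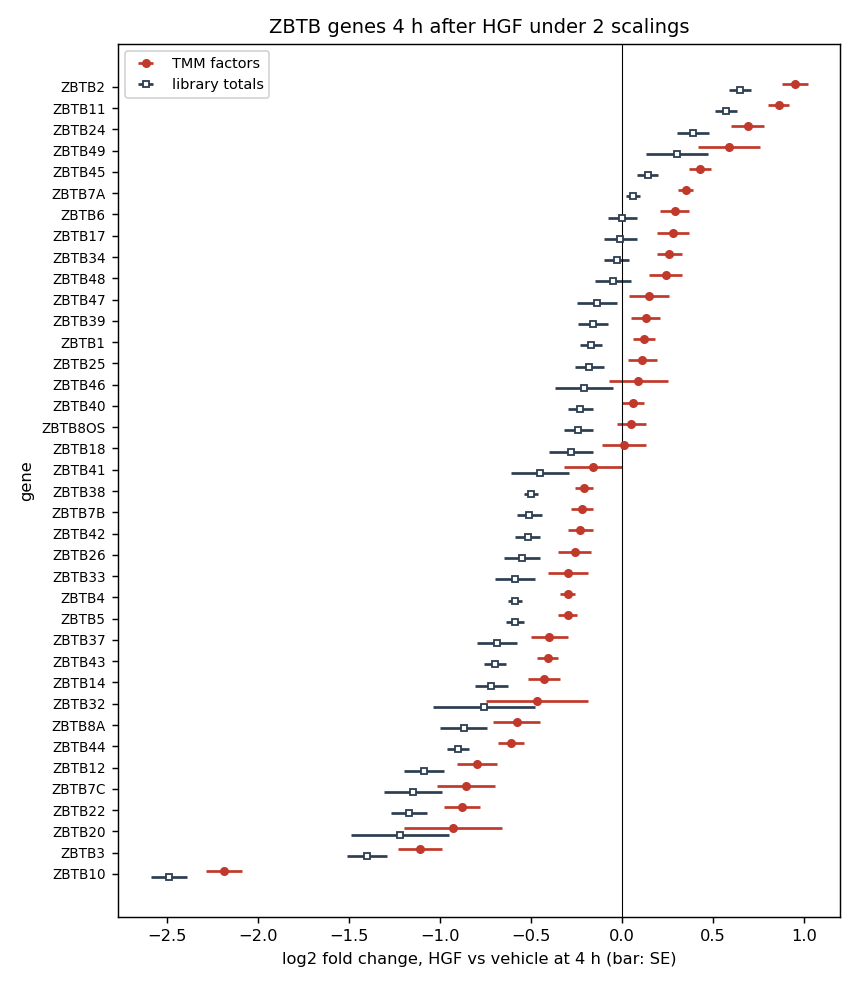
Log2 fold change of the 38 ZBTB genes after HGF at 4 h with TMM factors (red circles) and with library totals (open squares), with SE bars. All 38 genes lie lower with library totals, and of the 18 above 0 with TMM factors 12 lie at or below 0, among them the called genes ZBTB6, ZBTB17, ZBTB34 and ZBTB48.

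ZBTB2, ZBTB11, ZBTB24 and ZBTB45 were called higher after HGF at 4 h under both scalings, and all 18 genes called lower with TMM factors were also called lower with library totals. At 1 h ZBTB1, ZBTB7A, ZBTB7B and ZBTB34 were called higher under both scalings, and all 13 genes called lower stayed called. With library totals 7 further genes were called lower at 4 h: ZBTB1 (-0.17), ZBTB8OS (-0.24), ZBTB18 (-0.28), ZBTB25 (-0.18), ZBTB32 (-0.76), ZBTB40 (-0.23) and ZBTB41 (-0.45).

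Genes that work with the ZBTB proteins were described from lists chosen with earlier results of these data known. Of 7 tested BTB zinc finger genes under other symbols, 2 were higher and 2 lower after HGF at 1 h, and 4 higher and 2 lower at 4 h (2 higher and 3 lower with library totals). Of all genes tested, 13.8% were higher and 7.16% lower at 1 h, and 33.1% higher and 34.8% lower at 4 h, 67.9% in both directions together. HIC1, a tumour suppressor gene, averaged 4.31 ± 0.194 CPM after HGF and 0.648 ± 0.122 CPM in vehicle at 1 h, and 7.21 ± 1.02 CPM after HGF and 0.304 ± 0.106 CPM in vehicle at 4 h (SD, n = 3). It rose by 2.73 ± 0.21 at 1 h (adjusted p = 2.98e-12, edgeR) and 4.55 ± 0.24 at 4 h (adjusted p = 4.93e-17). BCL6, the repressor of germinal centre B cells, averaged 7.13 ± 0.277 CPM after HGF and 18.9 ± 1.33 CPM in vehicle at 1 h, and 7.24 ± 0.923 CPM after HGF and 36.5 ± 2.63 CPM in vehicle at 4 h. It fell by 1.40 ± 0.08 (adjusted p = 9.87e-15) and by 2.33 ± 0.08 (adjusted p = 5.86e-21). PATZ1 fell by 0.30 and 0.57, GZF1 was higher at 4 h alone (0.72), and HIC2 was higher by 0.29 and, at 4 h, by 0.25, or -0.04 and not called with library totals. BCL6B was not among the genes tested.

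Of 18 corepressors and BTB partners, 5 were higher and none lower after HGF at 1 h, and 8 were higher and 6 lower at 4 h. The 14 called at 4 h are 77.8% of the list, near the 67.9% of all genes, and the 5 called at 1 h are 27.8%, against 21% of all genes. With library totals the splits were 2 higher and 5 lower at 1 h, and 4 higher and 10 lower at 4 h. Of the 5 called at 1 h, HDAC7 (0.14), CTBP2 (0.12) and CUL3 (0.13) lost their calls under 11, 7 and 6 of 13 alternatives. The 1 h calls of BCORL1 and SIN3B were lost under none. CTBP2, a corepressor that binds short peptide motifs, averaged 355 ± 1.29 CPM after HGF at 4 h and 151 ± 4.67 CPM in vehicle (SD, n = 3), and rose by 1.24 ± 0.04 (adjusted p = 3.55e-22, edgeR). The class I histone deacetylase gene HDAC2 rose by 0.81 ± 0.04, while the class IIa genes HDAC4 and HDAC5 fell by 0.75 ± 0.11 and 0.74 ± 0.06. SIN3A fell by 0.40 ± 0.04, SIN3B rose by 0.46 ± 0.05 (0.17 with library totals) and CUL3 rose by 0.42 ± 0.05 (0.13 with library totals), each called under both scalings. BCORL1 was higher at 1 h (0.40) and lower at 4 h (-0.55). After MSP none of the 18 was called at either time.

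Of 10 tested partners and targets of MIZ1, 3 were higher and 1 lower after HGF at 1 h, and 4 higher and 2 lower at 4 h, and with library totals 3 higher and 3 lower at 1 h and 3 higher and 5 lower at 4 h. The called share was 40% at 1 h and 60% at 4 h, against 21% and 67.9% of all genes. MYC averaged 213 ± 7.87 CPM after HGF and 107 ± 0.289 CPM in vehicle at 1 h, and 232 ± 13.3 CPM after HGF and 77.4 ± 3.04 CPM in vehicle at 4 h (SD, n = 3), rises of 0.99 ± 0.05 (adjusted p = 1.16e-17, edgeR) and 1.59 ± 0.05 (adjusted p = 3.99e-23). CDKN1A averaged 489 ± 37.9 CPM after HGF and 104 ± 3.48 CPM in vehicle at 1 h, and 344 ± 2.74 CPM after HGF and 102 ± 4.08 CPM in vehicle at 4 h. It rose by 2.23 ± 0.05 (adjusted p = 5.28e-26) and 1.76 ± 0.05 (adjusted p = 1.2e-23). These were also the 2 genes of this list called after MSP at 1 h, MYC by 0.45 and CDKN1A by 0.40, and neither was called after MSP at 4 h. GFI1 fell at 4 h (-1.09 ± 0.23, adjusted p = 0.00012), NPM1 rose (0.51 ± 0.04, or 0.22 with library totals), and CDKN2B was not among the genes tested.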

How the data were processed

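RNA from 18 BxPC-3 samples was measured by mRNA sequencing, with libraries from a KAPA mRNA HyperPrep kit, per the labels. The authors deposited whole-number gene counts, made with STAR and featureCounts of Subread, per the submitters' processing notes. With genome build, annotation and strand setting not given in the sources used here, values of antisense and overlapping genes are uncertain. Total counts were 30556613 to 48477215 per library.

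From these counts, 16794 genes passed edgeR's filterByExpr (minimum count 10, minimum total 15). In no library did the others hold more than 0.0573% of the counts. TMM factors and the robust quasi-likelihood model of edgeR 4.0.16 (R 4.3.3) were used with 1 mean per group over 18 libraries, with 12 residual degrees of freedom and a biological coefficient of variation of 5.23%. Adjusted p-values (Benjamini-Hochberg, over every gene tested) were called under 0.05. Of the 9 contrasts, only HGF against vehicle at 1 h and MSP against vehicle at 4 h were tested on simulated data. Replicates differed by more than sampling noise, most of all the MSP libraries at 1 h. Between pairs of replicates, chi-square per degree of freedom (near 1 for sampling noise alone) was 7.23 to 20.3 for MSP at 1 h. It was 3.03 to 5.77 in the other groups. DESeq2 1.42.0, library totals, RLE factors, no low-count filter, no robust estimation, only the groups compared, a replicate block and leaving out each library were the alternatives.

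Symbols came from a table of gene names, which held 57754 of the 58395 identifiers, and otherwise from GENCODE 29. Gene types, exon lengths and overlaps came from GENCODE 29, which held 58275. Promoter windows came from RefSeq (GRCh38.p14). The members and the lists of related genes were chosen with earlier results of these data known. For each ligand against vehicle the rule names up to 6 rises and 6 falls among called ZBTB genes of at least 1 CPM whose libraries do not overlap, and for the other comparisons up to 4 each, plus ZBTB17, ZBTB7A, ZBTB33, ZBTB4 and ZBTB38. Other ZBTB genes given with values were chosen after their values were seen. A count of 0 allows up to 3 counts, for counting error only.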

Additional observations from a re-analysis of the deposited data

Results flagged for a closer look

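For 23 ZBTB genes the effect of HGF at 4 h differed from that at 1 h by the interaction test of edgeR (adjusted p under 0.05). These are 60.5% of the 38 genes, near the 53.2% of all genes that the same test called. The values below are log2 fold changes at 4 h minus those at 1 h. The difference was positive for ZBTB24 (0.95), ZBTB2 (0.89), ZBTB6 and ZBTB11 (0.66 each), ZBTB39 (0.60), ZBTB14 (0.41), ZBTB17 (0.34), ZBTB45 (0.29) and ZBTB8OS (0.26). It was negative for ZBTB10 (-1.82), ZBTB7C (-1.09), ZBTB22 (-1.02), ZBTB7B (-0.90), ZBTB20 (-0.87), ZBTB4 and ZBTB8A (-0.43 each), ZBTB5 (-0.42), ZBTB38 (-0.40), ZBTB44 (-0.36), ZBTB12 (-0.35), ZBTB42 (-0.33), ZBTB1 (-0.24) and ZBTB7A (-0.22). Leaving out 1 library ended the calls of ZBTB20, ZBTB12, ZBTB8A, ZBTB8OS and ZBTB17. Over the 19 alternatives the difference ranged from -1.13 to -0.68 for ZBTB20, -0.54 to -0.28 for ZBTB12, -0.61 to -0.32 for ZBTB8A, 0.08 to 0.32 for ZBTB8OS and 0.16 to 0.44 for ZBTB17. Library totals ended the calls of ZBTB14 (0.23), ZBTB17 (0.16), ZBTB45 (0.10) and ZBTB8OS (0.08).

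Among related genes the HGF effect was more positive at 4 h for HIC1 (1.82), CTBP2 (1.12), HDAC2 (0.72), GZF1 (0.66), MYC (0.59), NPM1 (0.47), HDAC3 and CUL3 (0.29 each), BCOR (0.28), MAX (0.26) and SIN3B (0.18). Of these 11, library totals ended the calls of HDAC3, CUL3 and BCOR (0.10 each), MAX (0.07) and SIN3B (-0.01). The HGF effect was more negative at 4 h for CDKN1C (-1.32), GFI1 (-1.29), BCORL1 (-0.95), HDAC4 (-0.94), BCL6 (-0.93), HDAC5 (-0.74), CDKN1A (-0.47), SIN3A (-0.36), PATZ1 (-0.27) and TBL1X (-0.25). Levels of CDKN1C were low, averaging 1.48 CPM after HGF and 0.784 CPM in vehicle at 1 h, and 0.541 and 0.717 CPM at 4 h. GFI1 averaged 0.962 CPM after HGF and 2.01 CPM in vehicle at 4 h. BCL6 averaged 7.13 and 7.24 CPM after HGF at 1 h and 4 h, and 18.9 and 36.5 CPM in vehicle. For MSP the effect was lower at 4 h than at 1 h for CDKN1A (-0.40) and MYC (-0.32), against 0.274% of all genes. Over all genes the HGF effect was more positive at 4 h for 26.8% and more negative for 26.4%. More positive and more negative, in that order, were 2 and 2 of 7 BTB zinc finger genes, 6 and 5 of 18 corepressors and partners, and 3 and 3 of 10 MIZ1 partners and targets.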

How the results depend on the processing

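Library totals turned the sign of 10 calls after HGF at 4 h or brought them to 0 within rounding: ZBTB6 (0), ZBTB17 (-0.01), ZBTB34 (-0.03), ZBTB48 (-0.05), HIC2 (-0.04), MYNN (-0.14), BCOR (-0.05), HDAC1 (-0.18), HDAC3 (0) and MAX (-0.08). For HGF against MSP at 4 h they did so for ZBTB1 (-0.08), ZBTB17 (-0.07), ZBTB34 (-0.03) and ZBTB48 (-0.04). They raised the called ZBTB genes to 20 for HGF against MSP at 1 h. Fitting only the groups compared gave 0 calls after MSP at 1 h and 1 at 4 h, and no low-count filter gave 1 at 4 h. The cause was not tested. No share over all genes is given for the counts with 1 library left out, which describe the ZBTB genes alone. Leaving out 1 library gave 0 to 1 calls after MSP at 1 h, 14 to 20 after HGF at 1 h (14 without vehicle replicate 3), 26 to 28 after HGF at 4 h, 10 to 15 and 24 to 28 for HGF against MSP at 1 h and 4 h, 19 to 22 for the HGF interaction, 6 to 8 for vehicle over time, and 0 for MSP at 4 h and its interaction. The labels share replicate numbers, and a replicate block gave 21 and 29 calls after HGF at 1 h and 4 h, 1 and 0 after MSP, 12 and 27 for HGF against MSP, 23 and 0 for the interactions and 9 for vehicle over time. Over all genes the block gave 2403 higher and 1294 lower after HGF at 1 h, and 5577 higher and 5859 lower at 4 h. For HGF against MSP it gave 1995 higher and 1163 lower at 1 h, and 5520 higher and 5717 lower at 4 h. The block ended the call of ZBTB6 for vehicle over time (-0.24, adjusted p = 0.0663, edgeR). Deviations of same-numbered libraries from their group means had a median r of 0.0309 over 45 pairs, across genes. For other numbers it was -0.0129 over 90 pairs. The ranges overlapped (-0.065 to 0.12 and -0.138 to 0.119), and the numbers were not taken as pairs.

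Counted over all genes named and comparisons, gene calls were lost 146 times of 1104 with 1 library left out. Each other alternative was compared over 161 calls. Of those, 31 were lost with library totals, 15 with no low-count filter, 8 with RLE factors, 7 with DESeq2 and 4 with no robust estimation. Fitting only the groups compared lost 3, and the replicate block lost 1. Only library totals turned a sign among these alternatives.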
